A study of Mus musculus with 4 samples.

Results

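Kinesins are microtubule motors, and the 43 genes described here are the protein-coding genes of GENCODE release M21 whose symbols begin with Kif and a digit, together with the kinesin light chain genes Klc1 to Klc4. All 43 had a row among the 53715 genes of the count table. The set holds 38 motor genes, 4 light chain genes and Kif1bp, which encodes a KIF1-binding protein that carries no motor domain but matches the rule by its symbol. RNA was measured by poly(A) RNA sequencing of pre-amplified cDNA from whole mouse embryos at the 2-cell stage. All embryos were of the C57BL/DBA2 strain label, were taken as zygotes from the oviduct, injected with an siRNA at 20 μM and cultured in KSOM, an embryo culture medium. The 2 control libraries came from embryos injected with siNC, the control siRNA, and the 2 knockdown libraries from embryos injected with an siRNA against SPENH0335, which the series' title implies is an RNA made from an enhancer. No age of the embryos beyond the stage is given in the sources used here, nor how many embryos went into a library or whether the libraries came from separate zygote collections. Any p-value here thus speaks only of how far these 4 libraries scatter, a scatter that may be technical, and fewer cells cannot be told apart from less RNA per cell. The table has no row named for SPENH0335, so the size of its knockdown was not measured here.

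A motor kinesin has a conserved head that hydrolyses ATP and steps along, or depolymerises, a microtubule. The remaining parts of the protein set its partners and cargo. In a dividing embryo one group of kinesins builds and elongates the spindle, aligns chromosomes and forms the midzone at which the cell is cut. Another group carries mitochondria, vesicles and RNA-protein particles through the cytoplasm. The large egg and its first daughter cells divide with transcripts inherited from the oocyte before their own genes take over, so at the 2-cell stage the pool of any kinesin mRNA can be maternal, embryonic or both.

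The genes were grouped by these roles. The mitotic motors were Kif11, Kif20a, Kif23, Kif2c and Kif4. The 13 transport motors belonged to kinesin-1 (Kif5a, Kif5b, Kif5c), kinesin-2 (Kif3a, Kif3b, Kif3c, Kif17) and kinesin-3 (Kif1a, Kif1b, Kif1c, Kif13a, Kif13b, Kif16b). A further 8 genes had other spindle roles, and 12 had roles in cilia, signalling or elsewhere. The roles come from textbook knowledge, and some members have more than one.

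Libraries held between 78865491 and 99011109 counts, and kinesin genes took 0.311 to 0.331% of them. Markers of the embryo itself were at high level in every library. The 8 oocyte and 2-cell genes summed to 4736 to 4973 CPM (each library's counts scaled to a common total, with TMM factors between libraries). Both knockdown libraries lay below both controls for Gdf9, Nlrp5 and Oosp1 (17.1% of all genes tested) and above them for Zscan4d and Zfp352 (15.6%). The groups overlapped for Obox1, Dppa3 and Zp3. At an unadjusted p under 0.05 in edgeR, 1 of the 8 was higher and 1 lower, against 1.56 and 2.29% of all genes. Cumulus and granulosa markers (15 genes, Inha at 0) summed to 54.9 to 58.4 CPM in control and 48.7 to 66.2 CPM in knockdown. Sperm markers (11 genes, Smcp at 0) summed to 15.8 to 18.4 and 11.8 to 20.0 CPM. Blood, oviduct and stroma markers (10 genes, Hbb-bs at 0) summed to 86.4 to 102 and 77.1 to 81.9 CPM. Cyp19a1, at 36.8 to 55.7 CPM, held most of the cumulus and granulosa sum. Pecam1, at 49.33 to 61.15 CPM, held a large part of the blood, oviduct and stroma sum. These sums thus say little of the other genes in the cumulus and granulosa list and in the blood, oviduct and stroma list. The part of cumulus, granulosa, sperm, blood, oviduct or stroma cells in the kinesin values was not tested.

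The bases just before the start sites of kinesin genes are shown first. Some of these genes, spindle motors and others, hold short cell cycle motifs there, a feature not used to form the groups. RefSeq promoters on GRCm38.p6 were found for 34 of the 43 genes. Among the mitotic motors, Kif20a had no entry. The motif TTTGAA is known as the cell cycle genes homology region and lies in many promoters active in G2 and mitosis. The motif CCAAT is the CCAAT box. Both were searched on both strands in the 250 bases before the start site, and no occurrence of one overlapped an occurrence of the other. Capitals mark TTTGAA or CCAAT as read on either strand, so they appear as TTCAAA and ATTGG where the motif is on the strand opposite the gene. Each line gives the 120 bases that end just before the start site, 5′ to 3′ on the strand of the gene. Kif11 is shown for holding both motifs close to its start, Kif23 as the most abundant mitotic motor, Kif20b as an abundant spindle motor with neither motif, and Kif17 as the most abundant transport motor.
Kif11 (chr19:37376262-37376381, plus strand): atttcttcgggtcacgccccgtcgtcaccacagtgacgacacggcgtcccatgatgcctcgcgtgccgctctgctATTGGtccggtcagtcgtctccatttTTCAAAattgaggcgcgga
Kif23 (chr9:61946800-61946919, minus strand): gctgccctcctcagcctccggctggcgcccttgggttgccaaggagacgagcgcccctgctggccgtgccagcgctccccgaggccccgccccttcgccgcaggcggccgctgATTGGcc
Kif20b (chr19:34922238-34922357, plus strand): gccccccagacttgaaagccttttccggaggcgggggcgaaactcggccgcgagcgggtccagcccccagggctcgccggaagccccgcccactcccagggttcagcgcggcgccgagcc
Kif17 (chr4:138262131-138262250, plus strand): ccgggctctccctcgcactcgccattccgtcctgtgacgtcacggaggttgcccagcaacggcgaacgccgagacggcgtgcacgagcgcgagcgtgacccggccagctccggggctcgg

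In Kif11 and in Kif15 a TTCAAA began at position -19 from the start site, and in Kif22 one of the TTCAAA matches began at -17. An ATTGG lay upstream of it at -45 in Kif11 and at -54 in Kif22. In Kif23 and Kif4 the ATTGG began at -7 and -5. Kif20b and Kif17 had neither motif in their 250 bases. Start sites are those of RefSeq, and for several genes, among them Kif17, Kif2c, Kif14, Kif4, Kif15 and Kif22, GENCODE M21 starts the gene further upstream. The Kif17 stretch printed here thus lies within the GENCODE gene, and need not be the promoter used in the embryo. Of the 4 mitotic motors with a promoter entry, 2 held TTTGAA (Kif11 and Kif2c) and 3 held CCAAT. Of 8 other spindle kinesins, 3 held TTTGAA and 4 held CCAAT, and of 10 transport motors 1 held TTTGAA (Kif1a) and 3 held CCAAT. Of 9 kinesins of cilia, signalling or other roles, 2 held TTTGAA (Kif26b and Kif27) and 4 held CCAAT. Both of these genes held both motifs, in Kif26b with TTTGAA at -9 and ATTGG at -73. Of 3 light chain genes, 0 held TTTGAA and 2 held CCAAT. Over the 34 kinesin genes the shares were 23.5% for TTTGAA and 47.1% for CCAAT. Over all 27025 genes with a promoter entry, 18.3% held TTTGAA and 37.5% held CCAAT in a window of the same length. A match describes the letters only.

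Kinesin mRNA of the 2-cell embryo was mostly that of spindle motors. Levels of different genes are given as CPM per kilobase of merged exon, averaged over the 4 libraries with their SD (n = 4). The highest by this measure was Kif2a, a microtubule depolymerase of the spindle poles, at 66.0 ± 5.59 CPM per kb. It lay above 96.5% of the 19506 protein-coding genes with at least 1 count. Kif20b, a kinesin-6 of late cytokinesis, followed at 55.7 ± 9.03, Kif23 at 45.9 ± 6.90, Kif17 at 39.5 ± 3.39, Kif14 at 37.8 ± 1.5 and Kif18a at 34.4 ± 1.55 CPM per kb. Mitotic and other spindle motors together made up 70.1 to 71.4% of the summed level of all 43 genes in single libraries, and transport motors 24.2 to 25.7%. The 6 genes just named held 62.2% of the summed level of the 43. The order Kif2a, Kif20b, Kif23, Kif17 held within each of the 4 libraries, and Kif17 lay above Kif18a in each. Kif14 changed places with Kif17 and with Kif18a between libraries. The order rests on merged exons as length, which the libraries cannot test. Kif23 has 7901 merged exon bases but a longest transcript of 3398, against 6393 and 5304 for Kif2a. With the longest transcript as length, Kif23 would lie above Kif2a. At the other end Kif12 had 0 counts in all 4 libraries, which allows up to 0.00833 CPM, and Klc3 and Kif26a had counts in 1 and in 2 libraries. A mean of 1 CPM or more was reached by 36 of the 43 genes, of 10 CPM or more by 22 and of 100 CPM or more by 10.

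**Figure D1:**
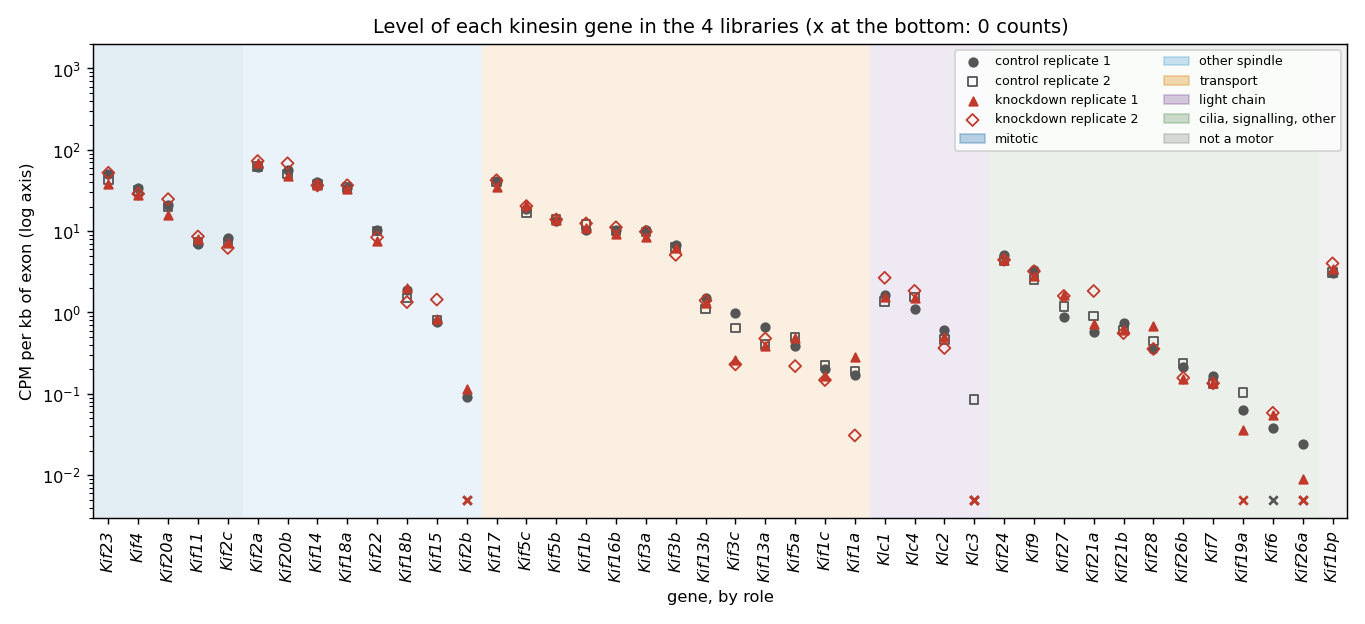
Level of each kinesin gene in CPM per kb of exon on a log axis, with 1 symbol per library and genes ordered by role and level. Kif12, at 0 in every library, is not drawn. Mitotic motors lie between 7.28 (Kif2c) and 45.9 (Kif23) on average, while transport motors run from 0.169 (Kif1a) to 39.5 (Kif17).

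The comparison of knockdown with control asks whether kinesin expression differs when SPENH0335 is targeted. No kinesin gene passed the test. Of 43 members, 40 passed the low-count filter and were tested with all 25565 genes (edgeR quasi-likelihood test, Benjamini-Hochberg adjusted p 0.9999 for each member). At an adjusted p under 0.05 the background was 0% of genes in each direction. At an unadjusted p under 0.05 there were 0 members higher, against 1.56% of all genes, and 1 lower, against 2.29%. DESeq2 called 0 members, against 0.0543% of its genes higher and 0.0895% lower, and limma-voom called 0 members and 0% of genes. Each gave 1 member at an unadjusted p under 0.05, against 4.01 and 3.13% of the genes they tested. The groups did not overlap for 7 members with knockdown above control, against 15.6% of all genes, and for 10 with knockdown below, against 17.1%. Fold changes were above 0 for 18 of the 40 tested members, against 49.7% of all genes, and below 0 for 22, with a median log2 fold change of -0.01, beside -0.0025 over all genes tested. For 23 of the 40 the 95% interval lay within 2-fold in either direction, against 31.8% of all genes. These 23 included all 5 mitotic motors and 8 of the 13 transport motors. The shares are not matched for level: 22 members but only 8185 of the 25565 genes averaged 10 CPM or more.

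**Figure D2:**
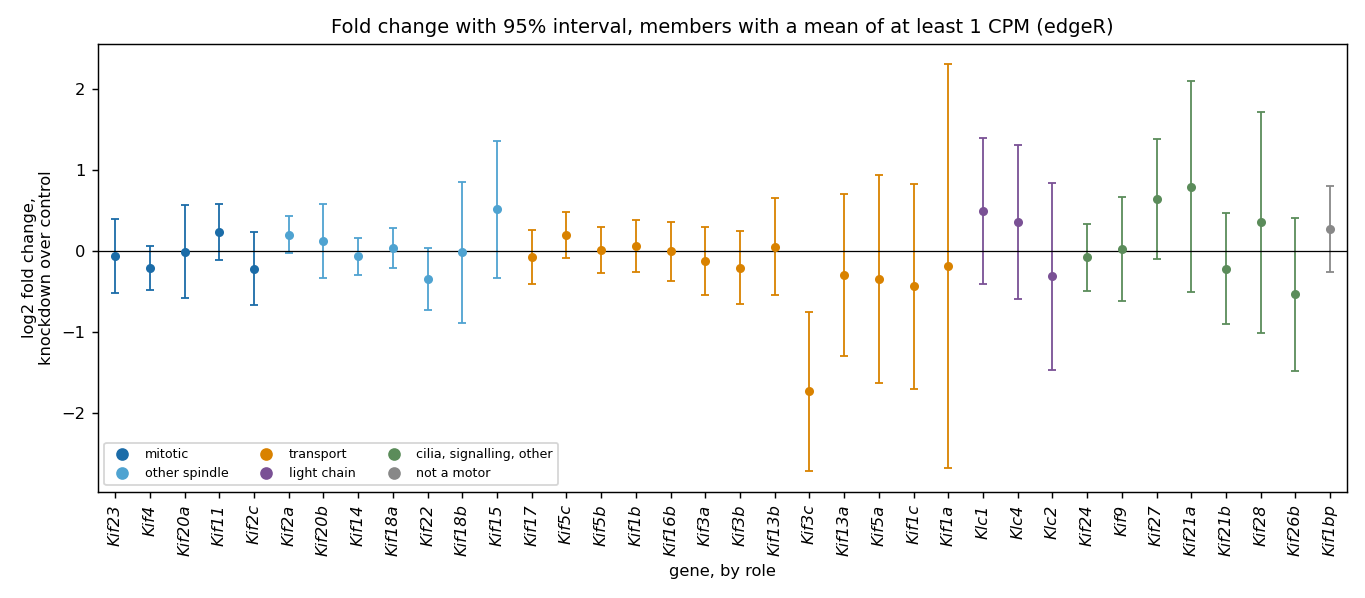
Log2 fold change of knockdown over control (edgeR) for the 36 kinesin genes that averaged 1 CPM or more, with 95% intervals and colours by role. Intervals are narrow for the abundant spindle and transport motors, and Kif3c has the only interval that does not reach 0 (-2.72 to -0.75); it did not pass after adjustment.

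The mitotic motors were measured deeply, and their fold changes differed in sign and size. Kif23, the motor of the centralspindlin complex that bundles midzone microtubules (ENSMUSG00000032254, chr9:61915905-61946774, GRCm38), was at 401 and 340 CPM in the control libraries and at 296 and 412 CPM in the knockdown libraries. The knockdown libraries were the lowest and the highest of the 4, on either side of control, and the log2 fold change was -0.07 (SE 0.18). Kif20a, which brings the chromosomal passenger complex to the midzone (chr18:34624613-34633277), was at 89.99 and 86.6 CPM in control and at 68.2 and 107 CPM in knockdown. Again knockdown replicate 1 lay below and knockdown replicate 2 above both controls, with a log2 fold change of -0.0079 (SE 0.23). Exons of Kif20a share 29.3% of their bases with Cdc23 on the opposite strand, and without a stated strand setting those reads cannot be assigned. Cdc23 itself was at 20.4 and 10.3 CPM in control and 14.2 and 25.9 CPM in knockdown.

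Kif4, a chromokinesin that shapes chromosome arms and sets the length of midzone microtubules (chrX:100625737-100727214), was at 188 and 174 CPM in control and at 153 and 159 CPM in knockdown. Both knockdown libraries lay below both controls, by a log2 fold change of -0.21 (SE 0.11, 95% interval -0.48 to 0.06). Kif4-ps, a transcribed processed pseudogene that may share reads with it, was at 1.02 to 2.84 CPM, and Pdzd11 on the opposite strand covers 15.1% of its exon bases. Kif2c, the depolymerase that corrects wrong attachments at kinetochores (chr4:117159639-117182639), was at 36.3 and 32.1 CPM in control and at 31.6 and 27.1 CPM in knockdown. Its groups were adjacent without overlapping, and the log2 fold change was -0.22 (SE 0.18). Kif11, the tetrameric kinesin-5 that pushes the spindle poles apart (chr19:37376403-37421859), was at 51.2 and 55.0 CPM in control and at 60.5 and 64.2 CPM in knockdown. It was the mitotic motor with a positive fold change, 0.23 on the log2 scale (SE 0.14, 95% interval -0.11 to 0.57), with both knockdown libraries above both controls. None of the 5 passed the test.

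Other spindle kinesins included the most abundant genes of the family by CPM and per kb of merged exon. Kif2a (chr13:106958996-107022126) was at 388 and 399 CPM in control and at 437 and 465 CPM in knockdown. Both knockdown libraries were higher, with a log2 fold change of 0.20 (SE 0.09, 95% interval -0.03 to 0.43), and 19.2% of its exon bases overlap Dimt1 on the opposite strand. Kif20b (chr19:34922361-34975745) was at 390 and 353 CPM in control and at 333 and 475 CPM in knockdown, the same order of libraries as in its kinesin-6 relatives Kif20a and Kif23. Kif14, a kinesin-3 that recruits citron kinase in cytokinesis, was at 414 and 388 CPM in control and at 387 and 378 CPM in knockdown. The knockdown values lay just below control and the log2 fold change was -0.07 (SE 0.09).

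Kif22, a chromokinesin that binds DNA and pushes chromosomes toward the equator (chr7:127027729-127042471), was at 50.8 and 48.9 CPM in control and at 37.2 and 41.2 CPM in knockdown. Both knockdown libraries were lower, with a log2 fold change of -0.35 (SE 0.15, 95% interval -0.72 to 0.03). Kif18a, which dampens chromosome movements at the plate, was at 332 and 336 CPM in control and at 325 and 360 CPM in knockdown (log2 fold change 0.04, SE 0.10). Kif15, a kinesin-12 able to stand in for KIF11 at the spindle, was at 8.54 and 8.94 CPM in control and at 9.08 and 15.9 CPM in knockdown. Its fold change therefore came mostly from 1 library. Kif18b was at 4.79 to 7.24 CPM, and Kif2b had 18 and 25 counts in 1 library of each group and 0 in the others.

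Transport motors ranged from 0.169 to 39.5 CPM per kb. Kif17, a homodimeric kinesin-2 known from dendrites and cilia (chr4:138250435-138301967), was at 189 and 183 CPM in control and at 159 and 194 CPM in knockdown. The groups overlapped and the log2 fold change was -0.08 (SE 0.13). Kif5c, a kinesin-1 heavy chain (chr2:49619298-49774778), was at 135 and 122 CPM in control and at 149 and 145 CPM in knockdown, so both knockdown libraries were higher, by a log2 fold change of 0.20 (SE 0.11). Kif5b, the kinesin-1 heavy chain found in most cell types (chr18:6201002-6242174), was the steadiest, at 106 and 111 CPM in control and 108 and 111 CPM in knockdown. Per kilobase, Kif5c stood at 19.3 ± 1.73, Kif5b at 13.7 ± 0.30 and Kif5a, the neuronal form, at 0.398 ± 0.128 CPM per kb. By merged exon length, the kinesin-1 genes thus differed from each other by more than their spread between libraries. For Kif5c and Kif5b this rests on the length used. Kif5b has 7981 merged exon bases but a longest transcript of 6032, against 7142 and 6856 for Kif5c. With the longest transcript as length these 2 genes would lie closer, and Kif5b would lie above Kif5c in control replicate 2.

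Within kinesin-2 the subunits of the heterotrimeric motor were unequal. Kif3a was at 9.63 ± 0.749 and its partner Kif3b at 6.07 ± 0.689 CPM per kb, while the alternative partner Kif3c was at 0.532 ± 0.359 CPM per kb. Kif3c (chr12:3365132-3406494) was the member with the smallest p. It had 651 and 383 counts in control and 187 and 160 in knockdown, or 7.34 and 4.77 against 1.94 and 1.70 CPM. Both knockdown libraries were lower than both controls, and the log2 fold change was -1.73 (SE 0.39, 95% interval -2.72 to -0.75, unadjusted p 0.00556, adjusted p 0.9999, edgeR). Its adjusted p was 0.0842 in DESeq2 and 0.978 in limma-voom, and across the settings that tested Kif3c it ran from 0.0842 to 1. The antisense genes 1110002L01Rik and Gm48512 cover 35.3 and 7.94% of its exon bases. 1110002L01Rik was at 1.52 and 3.62 CPM in control and 4.92 and 1.90 CPM in knockdown, so its groups overlapped. Single markers of other cell types lay on either side, and none passed the test (adjusted p 0.9999 for those named here, edgeR, chosen after their values were seen). Of the tested cumulus and granulosa markers, 6 lay above and 5 below 0 (median log2 fold change 0.05). The sperm list (median -0.33) and the blood, oviduct and stroma list (median -0.69) each had 3 above and 6 below. Over all genes 49.7% lay above 0. Has2, of cumulus cells, was at 2.65 and 2.58 CPM in control and 0.932 and 0.458 CPM in knockdown, and Foxl2, of granulosa cells, at 0.891 and 1.10 against 0.228 and 0.0213 CPM. Krt7, an epithelial keratin, was at 2.04 and 1.17 against 0.197 and 0.586 CPM. Knockdown libraries were above both controls for Fshr, of granulosa cells, at 0.609 and 0.361 against 0.798 and 1.24 CPM, and for Ovgp1, of the oviduct, at 1.32 and 0.548 against 2.14 and 1.83 CPM. At an unadjusted p under 0.05 in edgeR, 1 of 11 tested cumulus and granulosa markers was lower, against 2.29% of all genes. So were 1 of 9 sperm markers and 1 of 9 blood, oviduct and stroma markers. In each of these lists 0 were higher, against 1.56% of all genes. The part of such cells in the Kif3c values was not tested.

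Kinesin-3 transporters of membranes were represented mainly by Kif1b, a carrier of mitochondria and vesicle precursors, at 184 and 212 CPM in control and 194 and 219 CPM in knockdown, and by Kif16b, a mover of early endosomes, at 93.6 and 90.7 against 82.7 and 101 CPM. Their groups overlapped. Kif13b, Kif13a, Kif1c and Kif1a averaged 1.33, 0.483, 0.184 and 0.169 CPM per kb. Kif1a illustrates the spread at low level, since it had 139 and 143 counts in control but 256 and 27 in knockdown.

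Light chains, which fold kinesin-1 heavy chains and dock their cargo, were scarce beside the heavy chains. Klc1 was at 6.61 and 5.59 CPM in control and 6.28 and 10.9 CPM in knockdown. The log2 fold change of 0.49 (SE 0.36) again came mostly from knockdown replicate 2. Klc4 was at 2.60 and 3.67 against 3.63 and 4.39 CPM, and Klc2 at 2.50 and 1.93 against 2.05 and 1.51 CPM. Their sum per kilobase, Klc3 included, was 3.33 to 4.88 CPM per kb over the 4 libraries.

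Kinesins of cilia, signalling and other roles lay low. Kif24, a depolymerase that restrains cilia (4.58 ± 0.312 CPM per kb), and Kif9, a kinesin of motile flagella (2.98 ± 0.382 CPM per kb), led the group, and the groups overlapped for both. Kif27 (chr13:58287502-58359122), related to the Hedgehog regulator Kif7, was at 4.62 and 6.21 CPM in control and at 8.505 and 8.34 CPM in knockdown. Both knockdown libraries were higher, with a log2 fold change of 0.64 (SE 0.30, 95% interval -0.10 to 1.38). Kif26b was at 3.11 and 3.49 CPM in control and 2.25 and 2.31 CPM in knockdown (log2 fold change -0.53, SE 0.38). Kif21a was at 3.74, 5.85 and 4.70 CPM in the control libraries and knockdown replicate 1 and at 11.9 CPM in knockdown replicate 2. Kif21b, Kif28 and Kif7 averaged 0.627, 0.460 and 0.142 CPM per kb, and Kif19a, Kif6 and Kif26a had at most 34 counts in a library. Kif1bp, whose product binds several kinesins, was at 14.9 and 15.3 CPM in control and at 16.7 and 19.7 CPM in knockdown (log2 fold change 0.27, SE 0.21).

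Mitotic and transport motors were then set against each other. The summed level of the 5 mitotic motors was 121 and 109 CPM per kb in control and 96.3 and 121 CPM per kb in knockdown. The 13 transport motors summed to 115 and 112 CPM per kb in control and 107 and 118 CPM per kb in knockdown. The ratio of mitotic to transport was 1.05 and 0.975 in control and 0.902 and 1.02 in knockdown, so the groups overlapped. By merged exon length the 5 genes thus summed to nearly the same level as the 13. With the longest transcript as length the mean ratio was 1.285, and without division by length it was 0.861. The median log2 fold change was -0.07 over the mitotic motors (1 above and 4 below 0) and -0.13 over the transport motors (4 above and 9 below 0), a difference of 0.06. In single libraries the same difference of medians, taken from the control mean, was -0.16 in knockdown replicate 1 and 0.19 in knockdown replicate 2, with a pooled SD within groups of 0.18. The roles were thus not separated beyond the spread between replicates. The difference took the other sign without knockdown replicate 2, at -0.16, and without control replicate 2, at -0.03. It did so too over genes averaging 10 CPM or more, at -0.08.

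**Figure D3:**
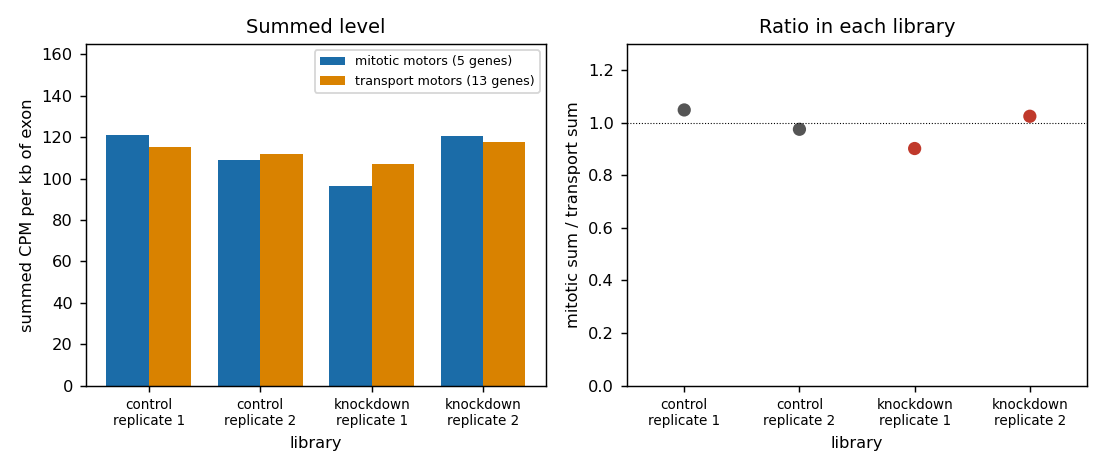
Left, summed CPM per kb of the 5 mitotic and 13 transport motors in each library; right, the ratio of the sums. The ratios run from 0.902 in knockdown replicate 1 to 1.05 in control replicate 1, and the groups overlap.

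For tested members with counts in both libraries of a group, the absolute log2 difference between replicates was taken. Its median was 0.18 in control and 0.20 in knockdown, beside 0.33 and 0.49 over all genes tested. Over genes averaging 10 CPM or more it was 0.13 and 0.26. The medians over all genes are not matched for level. Among the 22 members that averaged 10 CPM or more, 6 had their lowest value in knockdown replicate 1 and their highest in knockdown replicate 2 (Kif16b, Kif17, Kif18a, Kif20a, Kif20b and Kif23), against 19.6% of the 8185 genes at that level. Knockdown replicate 2 was the highest library for 12 of the 22, against 42.6% of genes, and knockdown replicate 1 the lowest for 9, against 33.4%. Shares this near the background are no result about the kinesins. Cenpe, the kinesin-7 of kinetochores that the symbol rule leaves out, was at 498 and 509 CPM in control and 459 and 692 CPM in knockdown. Its mean of 539.5 CPM lay above that of Kif2a, at 422.1 CPM the highest of the 43 genes.

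**Figure D4:**
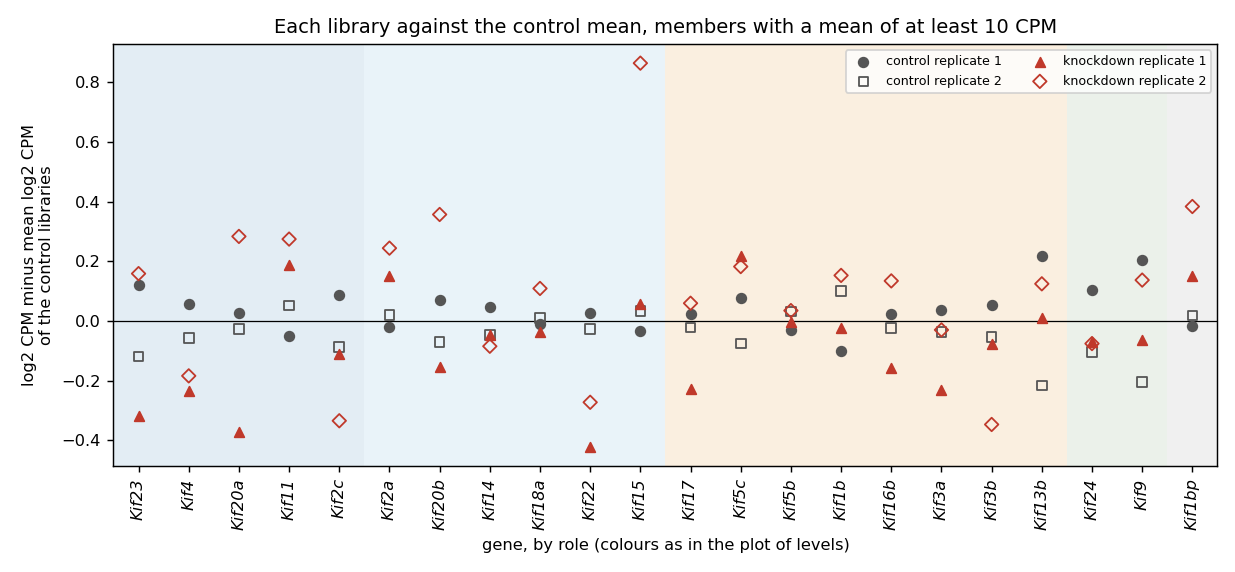
Log2 CPM of each library minus the mean log2 CPM of the control libraries, for the 22 kinesin genes that averaged 10 CPM or more. For Kif23, Kif20a and Kif20b the knockdown replicates lie on opposite sides of the controls (-0.37 and 0.28 for Kif20a), while for Kif4 and Kif22 both lie below and for Kif11, Kif2a and Kif5c both lie above.

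Genes that work with kinesins gave no call either. Of 20 partners of the mitotic motors tested, 0 had an unadjusted p under 0.05 in edgeR. Fold changes lay above 0 for 12, and the median log2 fold change was 0.0092. Over all genes tested, 1.56% were higher and 2.29% lower at that p, and 49.7% lay above 0. Among these partners the smallest p belonged to Cdk1, the kinase that drives mitotic entry. Cdk1 was at 65.8 and 67.0 CPM in control and 55.7 and 39.7 CPM in knockdown (log2 fold change -0.48, SE 0.20). Its unadjusted p was 0.0560 in edgeR, 0.0306 in DESeq2 (adjusted p 0.792) and 0.0382 in limma-voom. Next came Ncapd2, a condensin subunit, at 10.7 and 10.7 against 15.7 and 12.5 CPM. Of 19 cargo adaptors, 1 had an unadjusted p under 0.05 in edgeR in the upward direction and 0 in the downward, with a median of 0.18. That gene was Ktn1, a kinesin receptor of the endoplasmic reticulum, at 372 and 388 CPM in control and 429 and 518 CPM in knockdown (log2 fold change 0.32, SE 0.12, unadjusted p 0.0424, adjusted p 0.9999, edgeR). Mapk8ip2, a scaffold that binds kinesin-1, was at 2.03 and 2.00 against 1.04 and 0.554 CPM. Its unadjusted p was 0.0597 in edgeR, 0.0719 in DESeq2 and 0.0384 in limma-voom.

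Of 24 dynein and dynactin genes, which make the motor that walks the other way, 0 had an unadjusted p under 0.05 and 15 lay above 0, with a median of 0.09. Pafah1b1, the dynein regulator LIS1, was at 194 and 185 CPM in control and 220 and 226 CPM in knockdown, and Bicd2, a dynein adaptor, at 50.9 and 50.7 against 61.9 and 62.1 CPM. Both had knockdown libraries above the controls. The tubulin list holds genes of the track itself and also the γ-tubulins Tubg1 and Tubg2. Of 13 tested tubulin genes, 0 had an unadjusted p under 0.05 in edgeR, and 10 lay below 0 with a median of -0.32. Over all genes tested 49.7% lay above 0, with a median of -0.0025. Tubg2, a γ-tubulin, was at 120 and 135 CPM in control and 87.5 and 113 CPM in knockdown, and Tuba1b at 20.5 and 24.0 against 18.3 and 14.1 CPM. Among the 5 motors outside the symbol rule none had an unadjusted p under 0.05. Kifc3 was at 2.36 and 1.52 against 2.88 and 3.16 CPM and Kifc2 at 0.744 and 1.71 against 0.953 and 0.170 CPM.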

How the data were processed

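The authors deposited raw gene counts as whole numbers for each of the 4 libraries. HISAT2 2.1.0, Trim Galore 0.6.5, Picard 2.18.2, CASAVA 1.8 and mm10 are named in the submitters' processing notes, with no role stated. The counting tool, its annotation and strand setting and the handling of duplicates were not given in the sources used here. Symbols, coordinates and exon lengths came from GENCODE M21 on GRCm38, the assembly that mm10 names. 53620 of 53715 rows matched.

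The test was edgeR 4.0.16 under R 4.3.3 (filterByExpr with a minimum count of 10, TMM, quasi-likelihood F-test, two-sided, group only, Benjamini-Hochberg over 25565 genes, threshold 0.05). Each SE was taken as the absolute log2 fold change over the root of F. Alternatives were DESeq2 1.42.0, its size factors, limma-voom (limma 3.58.1), other filters, a replicate block and leaving out each library. No pair of libraries agreed within sampling noise (chi-square per degree of freedom of at least 28.8). On data simulated from this comparison over 23779 genes, edgeR called 37 of 100 genes changed by 2-fold and 91 of 100 changed by 4-fold. It also called 17 unchanged genes. The changed genes were drawn from those averaging 10 CPM or more, so these rates do not cover members below that level, such as Kif3c. CPM was divided by the merged exon length to compare genes. cDNA was pre-amplified without molecular identifiers named, so floors (3 counts over all libraries) cover counting error only.

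The members, roles and lists were chosen with earlier results of these data known. The naming rule took the 5 mitotic motors, the 3 highest members per length of each other role, the 4 smallest p in each direction, and the 2 smallest p of each list; other genes were named after their values were seen.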

Additional observations from a re-analysis of the deposited data

How the results depend on the processing

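No kinesin gene was called under any of the 10 other settings listed with the methods. In 4 of these a library is left out, so 1 group has a single library that is assumed to vary like the other group, and the lack of a call there says little. In the setting over genes averaging 10 CPM or more, members below that level, such as Kif3c, were not tested and could not be called. Over all genes, 53 were called by DESeq2, and leaving out 1 library gave 0 to 3 (3 without knockdown replicate 1 and 2 without knockdown replicate 2). The difference between the median log2 fold changes of mitotic and transport motors ran from -0.16 to 0.18 when a library was left out and was -0.08 over genes averaging 10 CPM or more. The ratio of their sums, 0.988 as a mean of 4 libraries, was 0.861 without division by length and 1.285 with the longest transcript as length. Without the highest member of each role it was 0.897. Each of these lay further from 0.988 than the SD of 0.065 between the 4 libraries.

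Of 21 named members, 7 changed sign when a library was left out. Their log2 fold changes ran from -0.22 to 0.0603 for Kif17, -0.37 to 0.28 for Kif20a, -0.15 to 0.36 for Kif20b, -0.32 to 0.15 for Kif23, -0.18 to 0.0285 for Kif24, -0.0189 to 0.0476 for Kif5b and -0.17 to 0.24 for Kif9. Kif20a was at 0.0081 in DESeq2 and 0.0025 with its size factors, and over genes averaging 10 CPM or more Kif5b was at -0.0074 and Kif9 at -5.09e-05. The cause was not tested.

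The replicate block called 0 members and 0 genes and gave a mitotic minus transport difference of 0.05. Libraries share only a number, and deviations of same-numbered libraries correlated at -0.21 over 8185 genes. Crossed pairing, chosen after seeing the data, also called 0 genes. The 4 tested members under 1 CPM had intervals beyond 2-fold, as had others above it; what part of this is depth was not tested.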
